A study of Mus musculus with 2 samples.

Results

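The genes described here are 30 genes of cholesterol synthesis, its control, and the uptake, transport, storage and export of sterols, found by symbol in a table of 22383 genes. All 30 were in the table, and all 30 reached 20 counts in either library or both, as did 13596 genes of the table. RNA was sequenced from 2 derivatives of iHFSC2, an immortalized mouse line of hair follicle stem cells, with 1 library for each. The shcircSmad5 line had received a lentivirus whose hairpin targets circSmad5, a circular transcript of Smad5, and the reference line had received the empty lentiviral vector, so no line carried a control hairpin. Counts per gene do not separate circSmad5 from the linear Smad5 transcripts, so its knockdown could not be checked here. Both lines were put under puromycin from day 4 after infection and counted as stable at day 15. With 1 library per group no difference below has a replicate check or a test, and the hairpin's effects cannot be told apart from differences between lines that were selected apart. The gene count total was 38382081 in the shcircSmad5 library and 39261010 in the empty vector library.

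Cells build cholesterol from acetyl-CoA through mevalonate, isoprenoid units, squalene and lanosterol, and the same isoprenoid units also feed protein prenylation, dolichol and ubiquinone. SREBP-2, the product of Srebf2, switches on nearly all enzymes of the route after SCAP has carried it out of the endoplasmic reticulum, and the INSIG proteins hold SCAP back when sterols are plentiful. In the epidermis cholesterol is a main lipid of the water barrier, and several inherited disorders of its synthesis affect skin and hair.

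The 30 genes were mostly lower in the shcircSmad5 library, most of them by less than 2-fold. With a limit of 1.2-fold and an exact 95% counting interval that excludes a ratio of 1, 17 of the 30 were lower and 6 were higher. Of the 19 synthesis enzymes among them, 11 were lower and 3 higher. The same rule called 27.1% of all 13596 genes lower and 24.2% higher, and 29.9% and 20.7% of the 11605 protein-coding genes. The share of lower calls among the 30 genes was thus 56.7%. With an interval that excludes 1 and no limit of size, 20 were lower and 8 higher, beside 38.5% and 34.9% of all genes. At a limit of 2-fold, Acat2 and Mylip were lower and Abca1 was higher, or 6.67% and 3.33% of the 30, where the rule called 6.24% of all genes lower and 8.43% higher. The median log2 ratio of the 30 genes was -0.31, against -0.02 for all genes and -0.05 for protein-coding genes. Since whole cultures were sequenced, fewer cells holding a transcript and less of it per cell cannot be told apart.

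Part of this lean moved with the chromosomes on which the genes lie. All 7 of the genes on chromosomes 13, 17 and X, a split chosen after the values were seen, were lower past 1.2-fold, as were 53.5% of all 1572 genes there. The medians of all genes on these chromosomes were -0.21, -0.38 and -0.43. Of the other 23 genes, 10 were lower and 6 were higher, where 23.7% and 25.8% of all genes off these 3 chromosomes were. Chromosome 4, which holds Abca1, had a median of -0.20, and without it as well 10 of 22 genes were lower and 5 higher, beside 22.3% and 26.6% of all genes. With every ratio taken relative to the median of its own chromosome, 11 of the 30 genes were lower and 6 higher, beside 22.5% and 24.1% of all genes. The part of whole-chromosome differences between the lines in these values was not tested.

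**Figure D1:**
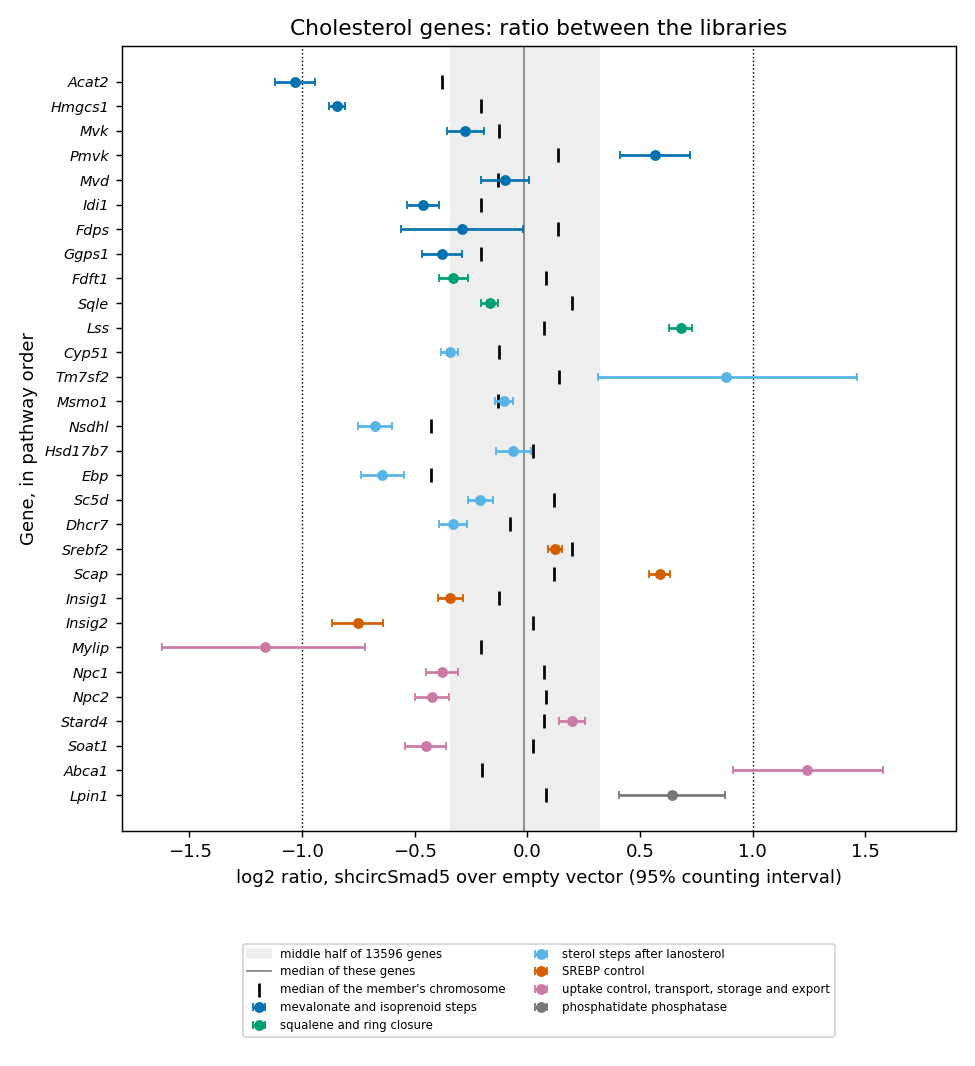
The log2 ratio of shcircSmad5 over empty vector for each of the 30 genes, in pathway order from top to bottom and coloured by role, with bars for the 95% counting interval. The grey band runs from the lower to the upper quartile of 13596 genes, the dotted lines mark 2-fold and each black tick is the median of the gene's chromosome. Abca1 lies highest at 1.24 and Mylip lowest at -1.16, and 22 of the 30 points lie below 0.

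**Figure D2:**
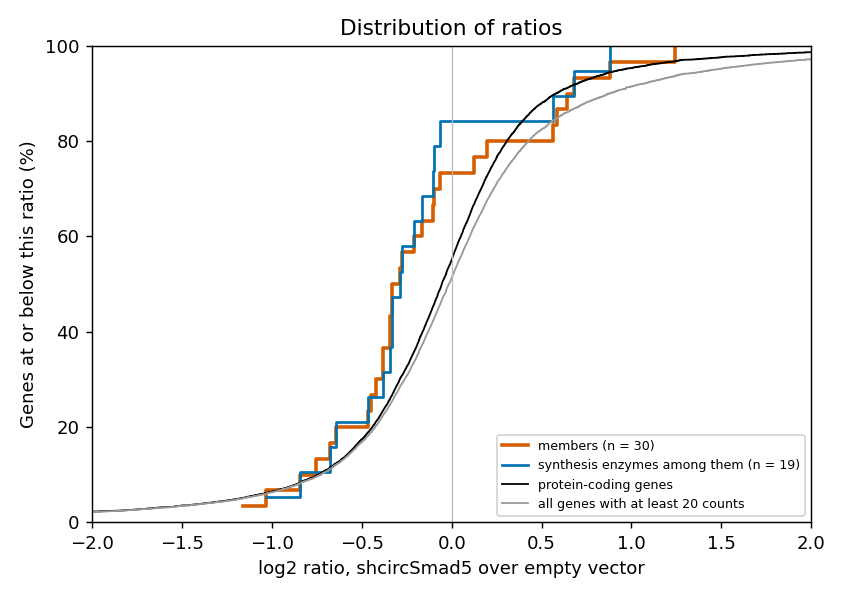
The percentage of genes at or below each log2 ratio of shcircSmad5 over empty vector, for the 30 genes, the 19 synthesis enzymes among them, protein-coding genes and all genes with at least 20 counts. The curves of the 30 genes and of the enzymes lie left of the others around the middle, where their medians are -0.31 and -0.29. This order does not hold at the ends. Past 1.5-fold, 5 of the 30 genes were higher, beside 13.9% of all genes.

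Promoter sequence is shown because SREBP-2 acts with the trimeric factor NF-Y, which binds CCAAT boxes, and with Sp1. RefSeq windows on GRCm38.p6, from 250 bases before to 50 bases after a transcription start, were found for 25 of the 30 genes (31 windows). The genes without an entry were Fdft1, Fdps, Npc1, Sqle and Stard4. Both strands were searched for CCAAT, for the Sp1 box GGGCGG and for a sterol regulatory element written as TCACNCCAC, and 0 matches of different motifs overlapped in these windows. CCAAT was found in 21 of the 25 genes (84.0%), and in 43.4% of 9637 genes with at least 20 counts and a window. GGGCGG was found in 22 of 25 (88.0%), beside 69.4% of these genes. TCACNCCAC was found in 1 of 25, beside 1.45%. A match of letters is a description and not a binding site. The Hmgcs1 window is the one with the sterol element, Mylip and Abca1 were the furthest below and above 0, and Mvk, Nsdhl and Lss were picked after their values were seen, Mvk and Nsdhl for their many boxes and Lss as an enzyme that was higher. In each sequence, read 5′ to 3′ on the strand of the gene, capitals mark the sterol element and the CCAAT boxes, which appear as ATTGG where they lie on the other strand.
Hmgcs1 (chr13:119690101-119690400, plus strand): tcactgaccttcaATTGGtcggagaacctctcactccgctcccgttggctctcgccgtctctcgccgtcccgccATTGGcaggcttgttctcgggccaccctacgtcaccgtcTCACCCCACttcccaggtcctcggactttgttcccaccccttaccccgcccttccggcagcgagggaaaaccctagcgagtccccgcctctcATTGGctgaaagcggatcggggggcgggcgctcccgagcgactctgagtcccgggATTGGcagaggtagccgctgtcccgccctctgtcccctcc
Mvk (chr5:114444019-114444318, plus strand): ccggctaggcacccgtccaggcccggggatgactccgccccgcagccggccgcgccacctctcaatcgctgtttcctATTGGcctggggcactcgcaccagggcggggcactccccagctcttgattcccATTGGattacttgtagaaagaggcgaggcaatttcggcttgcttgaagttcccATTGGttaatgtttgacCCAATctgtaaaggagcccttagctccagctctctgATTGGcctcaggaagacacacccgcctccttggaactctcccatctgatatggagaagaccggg
Nsdhl (chrX:72918271-72918570, plus strand): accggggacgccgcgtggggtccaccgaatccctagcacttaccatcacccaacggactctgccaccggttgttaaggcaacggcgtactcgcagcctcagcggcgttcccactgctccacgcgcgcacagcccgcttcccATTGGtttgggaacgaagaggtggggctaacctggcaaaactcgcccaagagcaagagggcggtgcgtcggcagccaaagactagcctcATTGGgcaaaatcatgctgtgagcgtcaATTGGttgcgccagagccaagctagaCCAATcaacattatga
Mylip (chr13:45389492-45389791, plus strand): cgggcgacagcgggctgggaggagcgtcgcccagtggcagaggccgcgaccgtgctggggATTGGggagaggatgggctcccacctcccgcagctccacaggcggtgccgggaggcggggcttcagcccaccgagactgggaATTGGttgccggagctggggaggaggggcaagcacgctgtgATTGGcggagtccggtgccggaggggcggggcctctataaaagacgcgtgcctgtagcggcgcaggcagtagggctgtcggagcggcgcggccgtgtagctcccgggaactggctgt
Lss (chr10:76531355-76531654, plus strand): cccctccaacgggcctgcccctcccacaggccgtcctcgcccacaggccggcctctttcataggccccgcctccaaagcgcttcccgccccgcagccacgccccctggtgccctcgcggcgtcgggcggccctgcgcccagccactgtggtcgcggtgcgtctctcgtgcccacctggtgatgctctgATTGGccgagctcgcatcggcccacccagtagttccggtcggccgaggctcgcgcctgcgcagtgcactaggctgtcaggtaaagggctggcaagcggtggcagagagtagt
Abca1 (chr4:53159846-53160145, minus strand): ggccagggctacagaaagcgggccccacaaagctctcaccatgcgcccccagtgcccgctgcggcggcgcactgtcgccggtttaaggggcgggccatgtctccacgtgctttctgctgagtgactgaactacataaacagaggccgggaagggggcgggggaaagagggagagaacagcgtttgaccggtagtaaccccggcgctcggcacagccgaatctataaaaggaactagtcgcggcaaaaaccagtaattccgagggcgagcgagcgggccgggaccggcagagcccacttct

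The element in Hmgcs1, TCACCCCAC, begins 137 bases before the start and lies between CCAAT boxes that begin 176 and 45 bases before it. Mvk has 5 boxes, Nsdhl and Hmgcs1 have 4 each, Mylip has 3, Lss has 1 and Abca1 has 0. Among the 25 genes with a window, those with 2 or more boxes in a window were all below 0, although of these Hsd17b7, Msmo1 and Mvd lay just above 0 under another scaling or with chromosomes centred. These were 13 genes, of which 10 were lower and 0 were higher past 1.2-fold, with a median log2 ratio of -0.42. Of these 13 genes 6 lie on chromosomes 13 and X, and with chromosomes centred 4 of the 13 (Hmgcs1, Insig2, Mylip and Npc2) were lower and 0 higher, with a median of -0.25, beside 19.2% and 24.4% of all genes with 2 or more boxes. Without centring, with 1 box, 3 of 8 genes were lower and 3 higher. With 0 boxes, Acat2 was lower and Abca1, Lpin1 and Scap were higher. With chromosomes centred, 2 of the 8 genes with 1 box were lower and 3 higher, beside 23.4% and 22% of all such genes. Of the 4 with 0 boxes, 1 was then lower and 3 were higher, beside 25.7% and 21.1%. Lower calls thus made up 30.8% with 2 or more boxes and 25% with 1 or 0, once centred. Genes in general did not show the order seen without centring. Of 1651 genes with 2 or more boxes, 26.7% were lower and 23.3% higher, and of 2526 genes with 1 box, 29.7% and 22.2%. Of 5455 genes with 0 boxes, 30.6% were lower and 21.4% higher. Among members with a single window, and without centring, 8 of the 11 with 2 or more boxes were lower and 0 were higher. For all protein-coding genes with a single window and 2 or more boxes, the shares were 27.1% and 22.1%. The pattern was noticed in these values and was not tested.

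**Figure D3:**
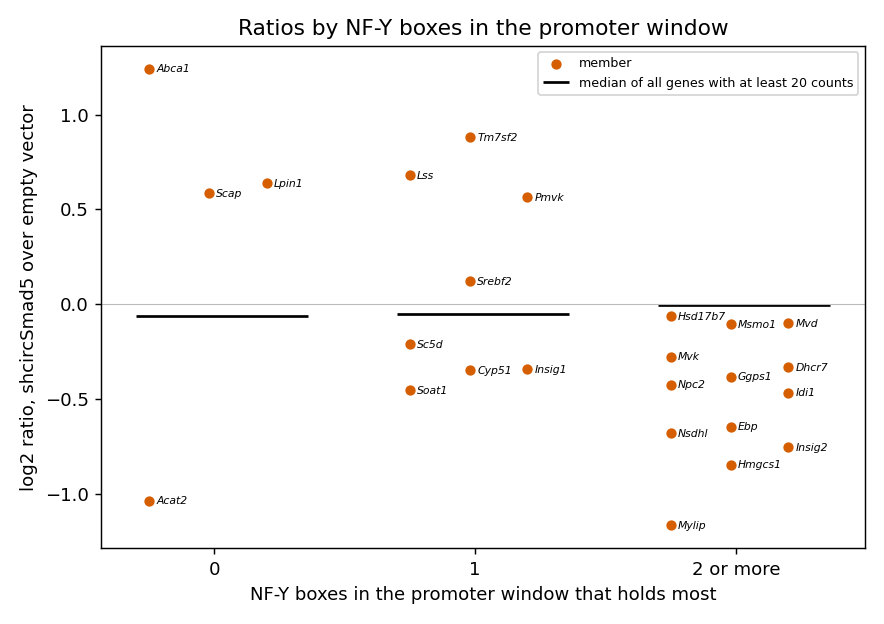
The log2 ratio of shcircSmad5 over empty vector for the 25 genes with a promoter window, by the number of NF-Y (CCAAT) boxes in the window that holds most. Points are genes, spread sideways for legibility, and black bars are medians of all genes with at least 20 counts in the same class (-0.06, -0.05 and -0.00). All 13 genes with 2 or more boxes lie below 0 with the scaling plotted (TMM), Hsd17b7, Msmo1 and Mvd among them near enough to cross 0 under another scaling or with chromosomes centred. With chromosomes centred, 4 of the 13 were lower past 1.2-fold, beside 2 of 8 genes with 1 box and 1 of 4 with 0 boxes.

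The early steps, from acetyl-CoA to the isoprenoids, held the largest falls among the enzymes. Of the 8 genes, 6 were lower and Pmvk was higher past 1.2-fold (all genes, 27.1% lower and 24.2% higher), and their summed level was 524.8 CPM (counts scaled to a common library size) in shcircSmad5 cells and 813.4 CPM in empty vector cells. Hmgcs1, which encodes the cytosolic synthase that commits acetoacetyl-CoA to the route, made up most of that gap. It had 9817 counts (55.7 FPKM, the deposited level per length and depth) in the shcircSmad5 library and 17262 counts (95.7 FPKM) in the empty vector library. The gene was 1.80-fold lower (95% counting interval 1.75 to 1.84), and its chromosome 13 (119690379 to 119708260, plus strand) had a median log2 ratio of -0.21 against its own -0.84.

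Acat2, the cytosolic thiolase that joins acetyl-CoA units before this step, had 1544 counts (15.8 FPKM) in shcircSmad5 cells and 3094 counts (31.0 FPKM) in empty vector cells. It was 2.05-fold lower (1.92 to 2.18). Its neighbour on chromosome 17, Acat3, is a near-identical copy, and 45.9% of the 50-base stretches of the longest coding Acat2 transcript also occur in Acat3, so reads could be split or dropped. Acat3 itself had 7 counts in the shcircSmad5 library and 1 in the empty vector library. Relative to the median of chromosome 17, the log2 ratio of Acat2 was -0.65, short of 2-fold.

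The kinases and the decarboxylase that follow did not move together. Mvk, mevalonate kinase, had 2279 counts in shcircSmad5 cells and 2701 in empty vector cells and was 1.21-fold lower (1.14 to 1.28). Pmvk, which adds the next phosphate, went the other way, with 872 counts (13.3 FPKM) in shcircSmad5 cells and 577 counts (8.58 FPKM) in empty vector cells, 1.48-fold higher (1.33 to 1.65). Mvd, the decarboxylase that makes isopentenyl diphosphate, had 1384 counts in shcircSmad5 cells and 1451 in empty vector cells, with an interval of the log2 ratio from -0.21 to 0.01 that includes 0. Thus, adjacent steps of this stretch were lower, higher and not distinguishable at this depth.

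Idi1, which isomerizes isopentenyl diphosphate, was 1.38-fold lower (1.31 to 1.45), with 2696 counts in shcircSmad5 cells and 3643 in empty vector cells. Ggps1, at the branch to geranylgeranyl diphosphate for protein prenylation, was 1.30-fold lower (1.22 to 1.38), with 1784 and 2273 counts in shcircSmad5 and empty vector cells. Both genes lie on chromosome 13, and relative to its median their log2 ratios were -0.26 and -0.17. Fdps, the farnesyl diphosphate synthase, was listed at only 1.29 FPKM in shcircSmad5 cells and 1.51 FPKM in empty vector cells, far below its neighbours in the route. Of the 50-base stretches of its longest coding transcript, 86.4% also occur in other annotated genes, among them the overlapping gene Gm43738 and several processed pseudogenes. Its level and its 1.22-fold lower value (1.01 to 1.47, on 209 and 250 counts in shcircSmad5 and empty vector cells) are therefore uncertain. Idi1 shares 21.3% of its stretches, most with the pseudogene Gm13502. Without Acat2 and Fdps, 15 of 28 genes were lower and 6 higher.

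At the squalene steps the enzymes parted. Fdft1, squalene synthase, the first step that serves sterols alone, had 3498 counts (22.1 FPKM) in shcircSmad5 cells and 4305 counts (26.6 FPKM) in empty vector cells, 1.26-fold lower, with a log2 ratio of -0.33 (-0.39 to -0.26). Sqle, squalene epoxidase, one of the flux-limiting oxygen-using steps, had 10565 counts (49.6 FPKM) in shcircSmad5 cells and 11615 counts (53.3 FPKM) in empty vector cells. Its ratio was 1.12-fold lower (1.09 to 1.15), inside the 1.2-fold limit, while the genes of its chromosome 15 leaned upwards (median 0.20). Lss, which folds epoxysqualene into lanosterol, was the exception, with 8089 counts (19.5 FPKM) in shcircSmad5 cells and 4945 counts (11.7 FPKM) in empty vector cells. Lss was 1.60-fold higher (1.55 to 1.66), and 0.61 above the median log2 ratio of chromosome 10. Of the exonic bases in the Lss gene model, 54.4% lie outside its protein-coding transcripts, and counts per gene do not tell its transcripts apart. The same share was 57.8% for Fdps, whose level is uncertain, and 53.8% for Npc1, and both were lower. The part of such bases in the Lss ratio was not tested.

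After lanosterol, 4 of the 8 enzyme genes were lower and Tm7sf2 was higher past 1.2-fold (all genes, 27.1% and 24.2%), with a summed level of 911.1 CPM in shcircSmad5 cells and 1109.7 CPM in empty vector cells. Cyp51, the lanosterol demethylase, was the most abundant of them, at 64.7 FPKM (10958 counts) in shcircSmad5 cells and 78.7 FPKM (13634 counts) in empty vector cells. It was 1.27-fold lower (1.24 to 1.30). Nsdhl, a dehydrogenase of the demethylation complex, had 2328 counts (21.3 FPKM) in shcircSmad5 cells and 3649 counts (32.6 FPKM) in empty vector cells, 1.60-fold lower (1.52 to 1.69). Ebp, the isomerase that shifts the double bond of the ring, had 1522 counts (17.2 FPKM) in shcircSmad5 cells and 2329 counts (25.7 FPKM) in empty vector cells, 1.56-fold lower (1.46 to 1.67). Nsdhl and Ebp both lie on the X chromosome, whose median was -0.43, and relative to it they stood at -0.25 and -0.22.

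The partners of Nsdhl in removing the methyl groups stayed near level. Msmo1, the methyl oxidase, had 9430 counts in shcircSmad5 cells and 9933 in empty vector cells, a log2 ratio of -0.10 (-0.15 to -0.06) that was 0.03 relative to its chromosome. Hsd17b7, the ketosteroid reductase, had 2569 counts in shcircSmad5 cells and 2628 in empty vector cells, with an interval from -0.14 to 0.02. So within this 3-enzyme complex, before centring, Nsdhl lay apart from Msmo1 and Hsd17b7, whose intervals do not reach its own. Relative to their chromosomes they stood closer, at -0.25 for Nsdhl, 0.03 for Msmo1 and -0.09 for Hsd17b7. Of the last reductions and desaturations, Sc5d, which makes the substrate of Dhcr7, had a log2 ratio of -0.21 (-0.26 to -0.15) on 4906 counts in shcircSmad5 cells and 5554 in empty vector cells. Dhcr7 converts 7-dehydrocholesterol, the skin's precursor of vitamin D, to cholesterol. It had 3947 counts (17.7 FPKM) in shcircSmad5 cells and 4864 counts (21.3 FPKM) in empty vector cells and was 1.26-fold lower (1.21 to 1.31).

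Tm7sf2, a sterol reductase whose activity the lamin B receptor Lbr also has, was scarce. It had 77 counts (0.456 FPKM) in shcircSmad5 cells and 41 counts (0.237 FPKM) in empty vector cells, and was 1.84-fold higher with a wide interval (1.24 to 2.76). It shares 12.1% of its exonic bases with Vps51 on the same strand. Lbr had 2137 counts in shcircSmad5 cells and 2772 in empty vector cells, a log2 ratio of -0.41 (-0.49 to -0.32), and held nearly all the counts of the pair in both lines.

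**Figure D4:**
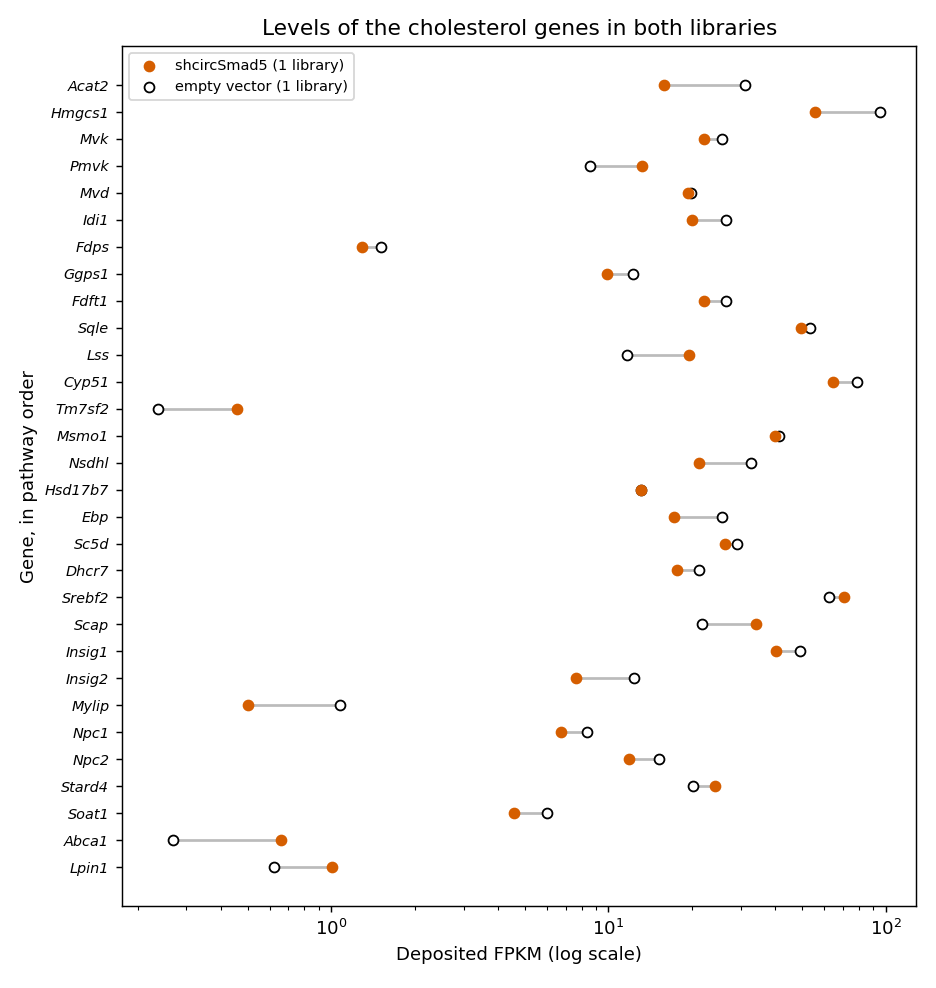
Deposited FPKM of each of the 30 genes on a log scale, in pathway order, as filled points for the shcircSmad5 library and open points for the empty vector library. In shcircSmad5 cells Srebf2 was highest at 70.8 FPKM and Tm7sf2 lowest at 0.456, and in empty vector cells Hmgcs1 was highest at 95.7 FPKM and Tm7sf2 lowest at 0.237.

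The order of levels per length differed at the top. In shcircSmad5 cells the order began with Srebf2 (70.8 FPKM), Cyp51 (64.7), Hmgcs1 (55.7) and Sqle (49.6), and in empty vector cells with Hmgcs1 (95.7 FPKM), Cyp51 (78.7), Srebf2 (62.3) and Sqle (53.3). Among all genes with at least 20 counts, Hmgcs1 lay at percentile 94.6 in shcircSmad5 cells and 97.2 in empty vector cells. Together the 30 genes took 0.330% of all counts in the shcircSmad5 library and 0.358% in the empty vector library.

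Among the control genes, the escort gene Scap was higher, both retention genes were lower and Srebf2 was not called. Srebf2 itself had 19522 counts (70.8 FPKM) in shcircSmad5 cells and 17561 counts (62.3 FPKM) in empty vector cells, a log2 ratio of 0.12 (0.09 to 0.15), inside the 1.2-fold limit and -0.08 relative to its chromosome. Scap, the escort protein, had 9759 counts (34.2 FPKM) in shcircSmad5 cells and 6362 counts (21.8 FPKM) in empty vector cells and was higher, with a log2 ratio of 0.59 (0.54 to 0.63). A noncoding gene on the other strand, 5830462I19Rik, lies over 13.2% of the exonic bases of Scap. Such overlaps covered 18.3% of the exonic bases of Fdft1 (Ctsb) and 12.1% of those of Hmgcs1 (Gm48342), both lower. The part of reads from the other strand in the counts of Scap, Fdft1 and Hmgcs1 was not tested. RNA levels of the control genes do not show how much SREBP-2 was cleaved.

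Both retention genes were lower. Insig1, itself an SREBP target and so a common readout of the pathway, had 4789 counts (40.3 FPKM) in shcircSmad5 cells and 5945 counts (48.96 FPKM) in empty vector cells, 1.27-fold lower (1.22 to 1.32). Insig2, which is known for a control less tied to SREBP, had 1019 counts (7.64 FPKM) in shcircSmad5 cells and 1681 counts (12.3 FPKM) in empty vector cells. It was 1.68-fold lower (1.56 to 1.82), on a chromosome, 1, whose median was 0.02. The intervals of the paralogs did not overlap, so Insig2 was the lower of the pair beyond counting error.

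Among the genes that handle cholesterol once made or taken up, Npc1, Npc2 and Soat1 were lower, while Abca1 was higher on few counts. Outside the 30 genes, Lipa, the lysosomal acid lipase that frees cholesterol, picked after its value was seen, had 2104 counts in shcircSmad5 cells and 1415 in empty vector cells, 1.46-fold higher. Npc1 and Npc2, which pass cholesterol out of the lysosome, were 1.30-fold (1.24 to 1.37) and 1.34-fold (1.27 to 1.41) lower. Npc1 had 2924 counts in shcircSmad5 cells and 3728 in empty vector cells. Npc2 had 2471 counts in shcircSmad5 cells and 3244 in empty vector cells. The partners thus stood close to each other, with intervals that overlap. Soat1, which esterifies cholesterol for storage, had 1721 counts (4.58 FPKM) in shcircSmad5 cells and 2304 counts (5.99 FPKM) in empty vector cells, 1.37-fold lower (1.28 to 1.46). Stard4, a cytosolic sterol carrier and SREBP-2 target, ran against these, with 5184 counts in shcircSmad5 cells and 4429 in empty vector cells, a log2 ratio of 0.20 (0.14 to 0.26).

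The furthest ratios of the set belonged to a pair of classical targets of the sterol-sensing receptor LXR, and they pointed in opposite directions. Abca1, the pump that loads cellular cholesterol onto apolipoproteins, had 263 counts (0.661 FPKM) in shcircSmad5 cells and 109 counts (0.268 FPKM) in empty vector cells, 2.36-fold higher (1.88 to 2.98). Mylip, a ubiquitin ligase that sends lipoprotein receptors to degradation, had 62 counts (0.4996 FPKM) in shcircSmad5 cells and 136 counts (1.07 FPKM) in empty vector cells, 2.24-fold lower (1.65 to 3.08). Both were rare transcripts, between percentiles 9.31 and 23.9 of measured genes across both libraries, and for Mylip the interval reaches below 2-fold. Lpin1, a phosphatidate phosphatase at the fork between triglyceride and phospholipid synthesis, was also rare, with 385 counts (1.01 FPKM) in shcircSmad5 cells and 242 counts (0.621 FPKM) in empty vector cells, and was 1.56-fold higher (1.32 to 1.84).

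Other genes of the pathway were read as fixed lists, whose counts stand beside 27.1% of all genes lower and 24.2% higher past 1.2-fold. Of 10 measured further genes of synthesis and acetyl-CoA supply, 5 were lower and Acss2 was higher past 1.2-fold, with a median log2 ratio of -0.27. Acly, the main cytosolic source of acetyl-CoA, had 18243 counts in shcircSmad5 cells and 19523 in empty vector cells (log2 ratio -0.13), and Por, the electron donor of Cyp51 and Sqle, had 12302 and 12729 counts in shcircSmad5 and empty vector cells (-0.08). Of 14 genes of SREBP processing and sterol-regulated degradation, 3 were lower and 2 higher, with a median of 0.02, near that of all genes. The most abundant of these, Vcp, the ATPase that extracts proteins from the endoplasmic reticulum, was 1.52-fold lower. The protease gene Mbtps1, which makes the first cut in SREBP, had a log2 ratio of 0.03. Mbtps2, the second protease, picked after its value was seen, was 1.59-fold lower on the X chromosome.

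Of 14 measured genes of lipoprotein uptake and sterol transport, 5 were lower (35.7%) and 3 higher (21.4%), shares near the 27.1% and 24.2% of all genes, with a median of -0.15. The 2 past 2-fold were related receptors, both lower. Lrp8 had 2252 counts in shcircSmad5 cells and 4513 in empty vector cells (2.05-fold), and Vldlr had 1829 in shcircSmad5 cells and 4294 in empty vector cells (2.40-fold). The large endocytic receptor Lrp1, picked after its value was seen, had 11175 counts in shcircSmad5 cells and 21465 in empty vector cells (log2 ratio -0.97). Of 9 measured LXR, efflux and oxysterol genes, 3 were lower, 1 was higher and 0 passed 2-fold, with a median of 0.02. The partner receptor gene Rxra (1.21-fold lower), the lipid droplet gene Plin2 (1.25-fold lower) and Lpcat3 (log2 ratio 0.13), a phospholipid remodelling enzyme induced by LXR, had the most counts. Nr1h3, which encodes the alpha form of LXR, had 2 counts in shcircSmad5 cells and 12 in empty vector cells, and Nr1h2, the beta form, 2010 in shcircSmad5 cells and 2214 in empty vector cells.

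Both libraries had the profile of basal keratinocytes, led by Krt14, Krt5 and Col17a1. Of 6 measured bulge markers, 3 were lower and 1 was higher past 1.2-fold (all genes, 27.1% and 24.2%), with a median log2 ratio of -0.45. Sox9 had 5301 counts in shcircSmad5 cells and 8829 in empty vector cells (1.70-fold lower), and Foxc1 had 4060 in shcircSmad5 cells and 6544 in empty vector cells (1.65-fold lower). Nfatc1 had 2077 in shcircSmad5 cells and 2300 in empty vector cells, and Tbx1, picked after its value was seen, had 945 in shcircSmad5 cells and 471 in empty vector cells (1.97-fold higher). The part of these differences in the values of the cholesterol genes was not tested. Krt15 had 79 counts in shcircSmad5 cells and 253 in empty vector cells. It was 3.27-fold lower (2.53 to 4.26), the only measured bulge marker past 2-fold. Cd34 had 0 counts in both, which allows up to 0.0765 CPM in shcircSmad5 cells and 0.0781 CPM in empty vector cells, and Lhx2 had 5 counts in shcircSmad5 cells and 4 in empty vector cells. The 6 sebocyte markers in the table, of a cell type that makes much lipid, summed to 2.37 CPM in shcircSmad5 cells and 2.03 CPM in empty vector cells, with Elovl3 and Dgat2l6 at 0 counts in both. The 7 fibroblast markers summed to 1.68 CPM in shcircSmad5 cells and 4.24 CPM in empty vector cells, nearly all from Pdgfra, with Col1a1, Dcn and Lum at 0 counts in both. The 6 immune and endothelial markers summed to 6.53 CPM in shcircSmad5 cells and 9.79 CPM in empty vector cells, with Cdh5 at 0 counts in both, and the 2 melanocyte markers to 0.816 and 0.625 CPM in shcircSmad5 and empty vector cells.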

How the data were processed

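RNA was measured in 1 library per group. Per the labels' protocols, ribosomal RNA was removed from 3 µg of total RNA and strand-keeping libraries were made. The submitters' processing notes name HISAT2, HTSeq 0.13.5 and 2 builds, GRCm38 and GRCh38. How strand and reads with several matches were treated is not given in the sources used here. For each gene the authors deposited whole-number counts and FPKM. The gene length implied by each FPKM equalled the exon length of GENCODE M21 (GRCm38) for 98.2% to 98.3% of genes above 0, so coordinates and models were taken from that release. No column of values was left unmatched.

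TMM scaling came from edgeR 4.0.16 under R 4.3.3. Ratios are shcircSmad5 over empty vector, with 95% intervals (exact, Clopper-Pearson) from how a gene's counts divide between the libraries. Intervals and limits cover counting error only. A gene was called at 20 or more counts in 1 or both libraries, a fold limit of 2 or 1.2 and an interval excluding 1. A count of 0 was given a limit of 3 counts. The members, the lists, the 1.2-fold limit and the other settings were chosen with earlier results of these data known. All members are named, with up to 4 genes of each further list past 2-fold, or else up to 3, by counts. Other genes were chosen after their values were seen. Some genes that this rule names are not reported here. Other scalings included DESeq2 1.42.0 size factors.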

Additional observations from a re-analysis of the deposited data

How the results depend on the processing

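With DESeq2 size factors or a prior count of 2, all 30 member ratios stayed within their counting intervals, and no member called past 1.2-fold changed sign under the scalings, FPKM settings or centring tried. Of the uncalled ones, Mvd, Msmo1 and Srebf2 changed sign with chromosomes centred, and Hsd17b7 with upper quartile and trimmed totals. The median of all genes moved by at most 0.08 (log2) between scalings. Lower calls past 2-fold numbered 1 with total counts, upper quartile or trimmed totals (without mitochondrial and top 20 genes). Of all 13596 genes, these scalings called 776, 776 and 756 lower. With each chromosome centred, 0 members and 771 of all 13596 genes were lower past 2-fold. A limit of 1.5-fold gave 6 lower and 5 higher (12.9% and 13.9% of all genes), and 3-fold gave 0 and 0 (3.10% and 4.35%). Past 1.2-fold, lower calls numbered 13 to 17 under the other scalings (22.2% to 26.4% of all genes), 11 with each chromosome centred (22.5%) and 10 outside chromosomes 13, 17 and X, counting chromosome 4 or leaving it out too (23.7% and 22.3%; both splits chosen after seeing the data). The members' median was -0.23 with trimmed totals and with log2(FPKM + 1), -0.22 centred, -0.17 outside chromosomes 13, 17 and X, -0.19 outside chromosome 4 too and -0.16 as a mean. Among all genes past 1.2-fold, 47.2% of calls were higher with TMM, 55.1% to 56.9% with total counts, upper quartile or trimmed totals; among those past 2-fold, 57.5% were higher with TMM and at most 62.5% otherwise.

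List medians moved as follows. The early steps were at -0.22 centred. The squalene steps were at -0.10 with total counts and upper quartile, -0.090 with trimmed totals and -0.36 centred. The later steps were at -0.19 with trimmed totals. The control genes were at -0.047 with total counts, -0.045 with upper quartile and -0.033 with trimmed totals. The further synthesis genes were at -0.20 with upper quartile, -0.19 with trimmed totals and -0.13 with no count minimum. The LXR list was at -0.10 with no count minimum. The fatty acid list was at -0.017 with trimmed totals and -0.19 centred. The cause was not tested. No paired analysis was possible because each group had 1 library, and no replicate could be left out. Depth limits Tm7sf2, Mylip, Abca1 and Fdps most.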

Other observations

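Lists of neighbouring branches of lipid synthesis were also read. Of 13 measured fatty acid targets of SREBP-1, 3 were lower and 2 higher past 1.2-fold, with a median log2 ratio of -0.09, or -0.19 with chromosomes centred, where that of the 30 cholesterol genes was -0.22. All genes stood at 27.1% lower and 24.2% higher. Scd1, a desaturase gene, had 1353 counts in shcircSmad5 cells and 4146 in empty vector cells and was 3.13-fold lower, the one member past 2-fold. Of genes picked after their values were seen, the synthase gene Fasn had 40675 counts in shcircSmad5 cells and 42506 in empty vector cells (log2 ratio -0.09), and the desaturase gene Scd2 had 28199 in shcircSmad5 cells and 27533 in empty vector cells (0.00). Me1, which supplies NADPH, was 1.69-fold lower. Of 12 genes that use the isoprenoid branch, 3 were lower and 3 higher, with a median of 0.06. Among them Pggt1b, a subunit of a prenyltransferase, was 1.51-fold higher, Icmt, which methylates prenylated proteins, 1.21-fold lower, and Nus1, of dolichol synthesis, had a log2 ratio of 0.22. The farnesyltransferase subunit genes Fntb (1.67-fold higher) and Fnta (1.27-fold lower), picked after their values were seen, stood on opposite sides.

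The share of a gene model outside its protein-coding transcripts varied among the genes that were higher, at 0% for Pmvk, 0.975% for Abca1, 33.6% for Lpin1, 37.5% for Scap, 49.8% for Tm7sf2 and 54.4% for Lss. Over protein-coding genes, the median log2 ratio was -0.13 where that share was 0 and 0.02 where it was above 50%. Among the 30 genes, 5 lay above 50%, and of these Fdps and Npc1 were lower and Lss was higher past 1.2-fold. Sqle (50.3%) and Msmo1 (61.4%) were neither. Of all 1420 protein-coding genes above 50%, 22.3% were lower and 24.5% higher. Where the share was above 10% and up to 25%, all 9 members were lower, beside 31.4% of 2466 genes. Of these 9, Hmgcs1, Idi1, Nsdhl and Ebp lie on chromosomes 13 and X, whose medians were -0.21 and -0.43. The other classes differed. At a share of 0, 2 of 4 members were lower (all genes, 35.8%), and above 0 and up to 10%, 1 of 5 (30.2%). Above 25% and up to 50%, 3 of 7 were lower and 3 higher (26.8% and 22.1%). What this share does to the ratios was not tested.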
